A study of Homo sapiens with 3 samples.

Results

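The G1/S and DNA replication genes were a list of 44 genes that act from the cyclin D step of the cell cycle to the synthesis of DNA, matched to the 3 libraries by Ensembl ID and symbol. Of the 44, 43 had a value among 23379 genes, and 42 had an average of 1 FPKM or more across the libraries, the level from which genes were compared. FPKM is a read number scaled to the length of the gene and the depth of the library, so levels can be set beside each other between genes. E2F2 lay below that level, and CCND2 was not analysed here. By the labels the RNA came from DU145, an established line from a human prostate carcinoma, with 1 library in each of 3 groups. P-Enter is the negative control and is called the control here, WT the cells overexpressing wild-type BRAF and L597R the cells given a plasmid with the BRAF mutant of that name, in which 1 residue of the kinase domain is exchanged. The labels do not say whether the transfected cells were a pool or a clone, how long the BRAF genes had been expressed, or how many cultures went into a library.

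Cells pass from G1 into S phase when D-type cyclins with CDK4 or CDK6, and then cyclin E with CDK2, phosphorylate the retinoblastoma protein and free the E2F transcription factors. E2F factors switch on genes for licensing origins, for the helicase and polymerases of the replication fork and for making deoxynucleotides. BRAF feeds the ERK pathway, whose activity raises cyclin D1 in many cell types, and DU145 is known for lacking a functional retinoblastoma protein.

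Sequence in front of the genes is shown first, because the letters recognised by E2F are what many of these genes share beyond the list itself. RefSeq promoter windows (GRCh38.p14) of 300 bases, 250 before and 50 after a start, were matched for 37 of the 44 genes. CCND1, CCND2, CCNE2, CDK2, MCM4, MCM5 and GINS4 had no entry. The E2F letters searched were TTTCCCGC, TTTCGCGC, TTTGCCGC and TTTGGCGC, on both strands. They occurred in 20 of 37 genes (54.1%), against 7.302% of 8025 genes at or above the 1 FPKM mean that had a window and 3.31% of all 35116 windows. The 37 genes, here and for the motifs below, include E2F2, which has a match and lay below that mean. At or above it 19 genes had a match and 17 had a window and no match. Counted by window, since some genes have several starts, the share was 40.8% of 49. The stretches below are 60 bases cut around a match upstream of the RefSeq start, and most do not adjoin the start. For MCM7, GINS2, RFC3 and LIG1 they are 30 bases, as these lie in exons of other transcripts of the same gene in GENCODE 29. The matches shown begin at positions from -174 (MCM3) to -9 (MCM7) relative to the start. They are written 5′ to 3′ in the direction of the gene, with the E2F letters (in either orientation) in capitals.
E2F1, chr20:33686386-33686445, minus strand: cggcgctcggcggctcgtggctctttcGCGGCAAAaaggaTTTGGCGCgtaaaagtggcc
CDC25A, chr3:48188428-48188487, minus strand: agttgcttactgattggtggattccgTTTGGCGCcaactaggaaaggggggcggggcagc
MCM3, chr6:52284883-52284942, minus strand: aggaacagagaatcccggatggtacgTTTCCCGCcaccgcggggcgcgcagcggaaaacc
MCM6, chr2:135876562-135876621, minus strand: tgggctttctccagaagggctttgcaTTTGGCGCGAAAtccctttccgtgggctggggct
MCM6, chr2:135876500-135876559, minus strand: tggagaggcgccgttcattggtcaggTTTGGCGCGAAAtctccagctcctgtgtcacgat
MCM7, chr7:100101398-100101427, minus strand: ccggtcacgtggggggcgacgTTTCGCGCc
GINS2, chr16:85688967-85688996, minus strand: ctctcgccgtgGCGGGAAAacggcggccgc
PCNA, chr20:5126648-5126707, minus strand: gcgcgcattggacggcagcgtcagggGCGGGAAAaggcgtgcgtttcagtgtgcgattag
RFC3, chr13:33818083-33818112, plus strand: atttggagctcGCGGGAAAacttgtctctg
POLA1, chrX:24693755-24693814, plus strand: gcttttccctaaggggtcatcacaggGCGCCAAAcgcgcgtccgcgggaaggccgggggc
LIG1, chr19:48170440-48170469, minus strand: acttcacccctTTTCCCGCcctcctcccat
They come from the E2F factors, the cyclin E step, the helicase, the clamp and its loader, and the polymerases and Okazaki fragment enzymes. They were chosen after the values were known, to show genes that lay lower in L597R (E2F1, MCM7, GINS2, LIG1), higher (RFC3, POLA1) and near the control (MCM6). MCM6 has 2 such stretches, and in each the letters of one orientation run into those of the other. The end of the E2F1 stretch nearest the start also lies within the bounds of E2F1 in GENCODE 29. A match is a description of letters and was not tested for binding.

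Of the other motifs, CCAAT occurred in 22 of 37 genes (59.5%) against 44.01% of the genes at that mean. The GC box GGGCGG occurred in 28 (75.7%) against 79.2%. The letters TTTGAA of the cell cycle homology region (CHR), known from genes of G2 and mitosis, occurred in 2, E2F3 and RRM1 (5.41%), against 13.1%. The AP-1 letters TGACTCA, of the Jun and Fos factors, were in 0 of the 37 genes and in 4.35% of the genes at that mean. Both strands were searched each time; GGGCGG can overlap the E2F letters, and the other motifs were counted wherever they stood.

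**Figure D1:**
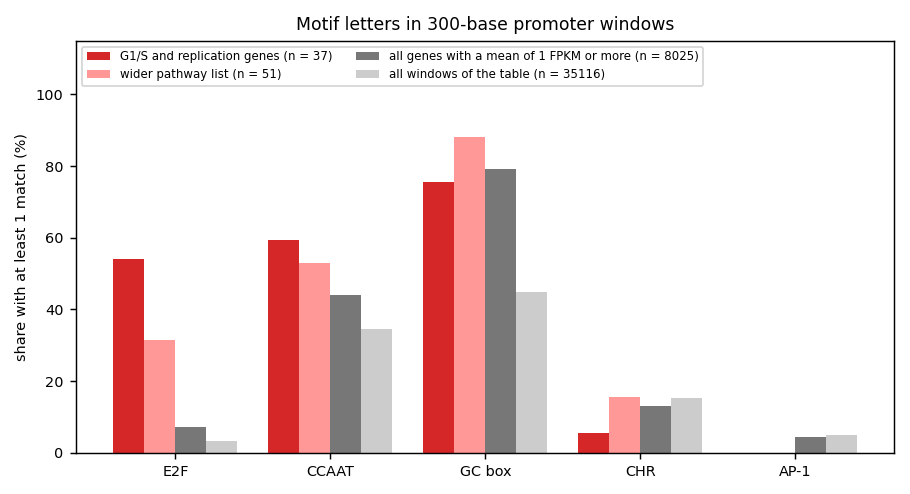
Share of genes with at least 1 match of each motif's letters in a 300-base promoter window (y axis, percent) for 37 G1/S and replication genes, 51 genes of a wider pathway list, 8025 genes with a mean of at least 1 FPKM, and, as a share of windows, all 35116 windows. The E2F bars are 54.1%, 31.4%, 7.302% and 3.31%, while the GC box bars of the first 3 sets lie between 75.7% and 88.2%.

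Counted reads, worked out from the deposited values, came to 13294004 for the control, 15665132 for WT and 16603676 for L597R. BRAF itself was at 1.65, 4.41 and 9.59 FPKM in that order, higher in both libraries given BRAF, and the mutation cannot be told apart from the higher BRAF level of L597R. Of genes used to check the line, VIM was at 129.9, 127 and 132 FPKM and KRT18 at 34.3, 36.6 and 37.6 FPKM in the order control, WT, L597R. KRT8 was under 1 FPKM in each library, and CDH1 was at 0.0124 FPKM in the control and 0 in WT and L597R. EPCAM and KLK3 were not analysed here. These levels do not establish the identity of the line, and its name rests on the labels alone. With 1 library per group there is no spread between replicates and no p-value. Intervals in parentheses are exact 95% intervals of a read ratio, the gene's share of counted reads in one library over that in another. Since they hold the counting error alone, they set one library against another, not one condition against another.

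The 42 genes were well expressed in all 3 libraries, with a median of 24.5 FPKM in the control, 23.8 in WT and 21.4 in L597R. The median of all 10639 genes compared was 7.16, 7.203 and 7.45 FPKM. CCND1, PCNA, TK1, FEN1 and MCM7 lay above 100 FPKM in each library. CCNE2, POLA1, POLA2, PRIM1 and GINS4 lay under 5. The highest gene was CCND1 in the control and WT and PCNA in L597R.

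**Figure D2:**
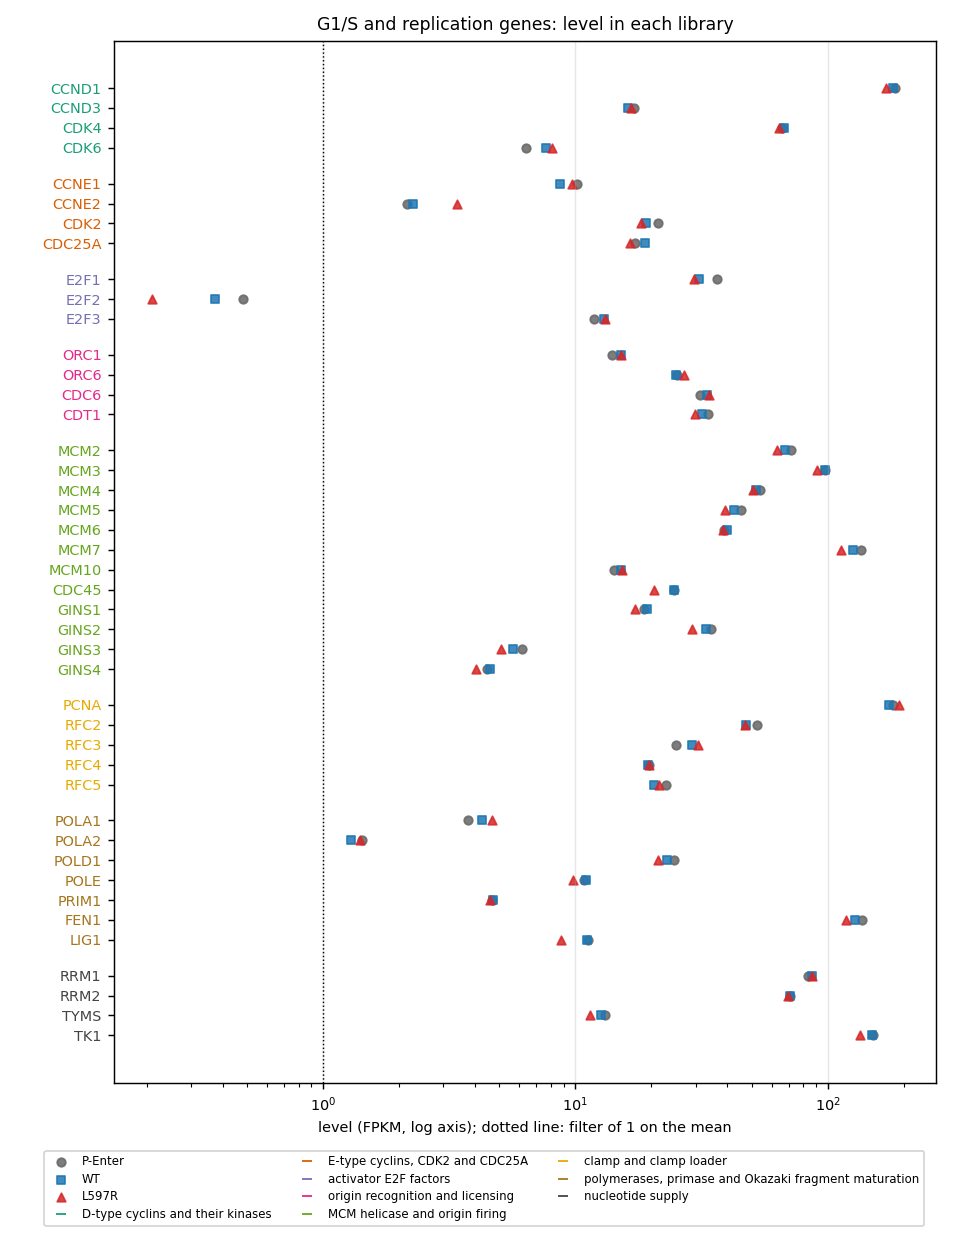
Level of each of the 43 genes (x axis, FPKM on a log axis) in P-Enter (circles), WT (squares) and L597R (triangles), grouped and coloured by role. The 3 symbols lie close together for nearly every gene; the widest gaps are those of E2F2, from 0.2095 to 0.482 FPKM, and of CCNE2, from 2.16 to 3.38.

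None of the 42 genes differed 2-fold between libraries. By the rule of a log2(FPKM + 1) difference of at least 1, 0 of 42 passed in each of the 3 comparisons. Among all 10639 genes 0.376% passed higher and 0.602% lower in WT over the control, 0.301% and 0.508% in L597R over the control, and 0.348% and 0.376% in L597R over WT. Smaller differences were read from the intervals. In WT over the control the interval lay above 1 for 5 of 42 (11.9%, against 14.0% of all genes) and below 1 for 8 (19.05%, against 12.1%). In L597R over the control it lay above 1 for 7 (16.7%, against 25.5%) and below 1 for 19 (45.2%, against 23.9%). In L597R over WT the numbers were 4 above (9.52%, against 22.1%) and 14 below (33.3%, against 16.3%). The share below 1 was above that of all genes in each comparison, before GC content and level were taken into account. Genes with more reads have narrower intervals, and the median level of these genes was above that of all genes. At a mean of 5 FPKM or more, 24 of 37 had an interval leaving out 1, on either side, in L597R over the control. Of all genes at that level, 58.8% did. In L597R over WT it was 16 of 37, against 47.04%, and in WT over the control 12 of 37, against 30.9%. The median log2 difference was -0.01 for WT over the control, -0.08 for L597R over the control and -0.06 for L597R over WT, where all genes had medians of -0.00, -0.01 and 0.01. Levels here are shares of the reads of bulk samples. Fewer cells in S phase and less RNA of these genes per cell cannot be told apart. Neither can be told apart from the trend with GC content described next.

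**Figure D3:**
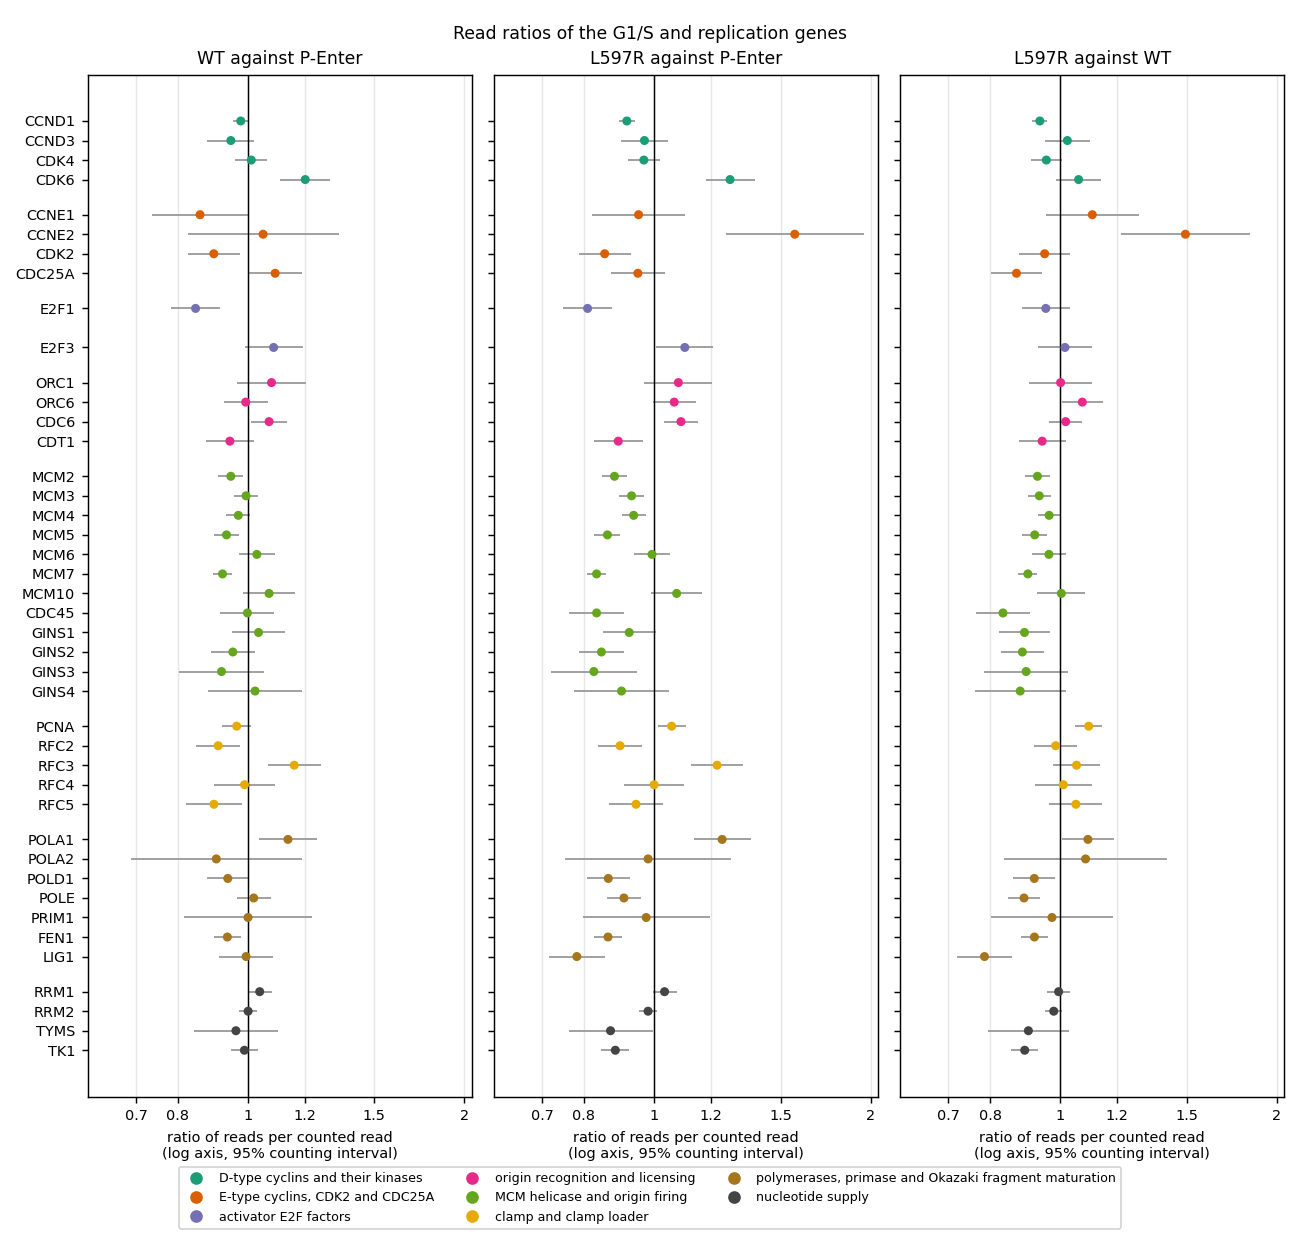
Read ratio of each of the 42 genes (x axis, log axis) with its exact 95% counting interval in the 3 comparisons, grouped and coloured by role. In L597R over the control 30 of 42 points lie left of 1, and CCNE2 stands farthest right at 1.57.

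The differences went with GC content, in this list as across the transcriptome. Over the 42 genes the Spearman correlation of the log2 read ratio with the GC content of the longest transcript was -0.59 for WT over the control and -0.66 for L597R over the control; over 9353 protein-coding genes it was -0.45 and -0.68. These are descriptions across genes of the same libraries. In L597R over the control the 21 genes at 50% GC or more had a median read ratio of 0.893, with 20 of 21 below 1, and all genes in that range had a median of 0.911. The 21 genes under 50% GC had a median of 1.001, with 10 of 21 below 1, where all genes in that range had 1.098. Each read ratio was therefore also divided by the ratio fitted from GC content, length and mean level over the 9353 protein-coding genes. The median of that quotient was 0.992, 0.983 and 0.9799 for the 42 genes in the 3 comparisons. Its interval lay above 1 for 7 and below 1 for 11 of 42 in L597R over the control (16.7% and 26.2%, against 17.4% and 16.7% of the genes fitted). In WT over the control the numbers were 6 and 2 (14.3% and 4.76%, against 10.1% and 10.8% of the genes fitted), and in L597R over WT 4 and 8 (9.52% and 19.05%, against 14.0% and 13.4%). After the fit the share below 1 was above that of the genes fitted in both comparisons of L597R and under it in WT over the control. The fit does not change the relative width of an interval, so read depth still enters these shares.

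**Figure D4:**
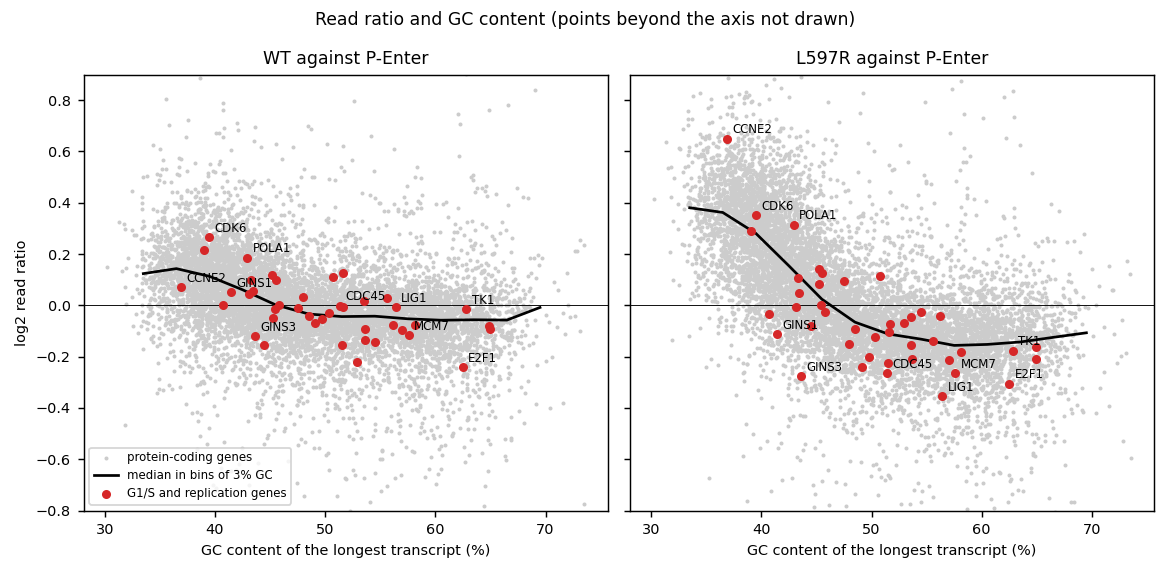
Log2 read ratio (y axis) against the GC content of the longest transcript (x axis, percent) for WT and for L597R over the control: protein-coding genes in grey, their median in bins of 3% GC as a black line, the 42 G1/S and replication genes in red. The line falls from left to right, more steeply for L597R; GINS1, GINS3, CDC45 and LIG1 lie under it there and CCNE2 above it.

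D-type cyclins and their kinases start the passage out of G1. CCND1, which encodes cyclin D1 and is a known target of ERK signalling, was at 185 FPKM in the control, 181 in WT and 169.6 in L597R. It was lowest in L597R, with a read ratio of 0.917 (0.895 to 0.941) over the control and 0.938 (0.916 to 0.961) against WT; divided by the fitted ratio the first was 0.983 (0.959 to 1.01). CCND3, its relative, was at 17.1, 16.2 and 16.6 FPKM in the order control, WT, L597R, so cyclin D1 lay 10.8, 11.2 and 10.2 times above it per length. The kinase CDK4 was at 66.01, 66.8 and 63.9 FPKM. No interval of their read ratios left out 1. After the fit L597R was above the control for both, at 1.08 (1.01 to 1.17) for CCND3 and 1.07 (1.02 to 1.13) for CDK4. CCND3 was then also above WT in L597R, at 1.095 (1.02 to 1.18), and CDK4 above the control in WT, at 1.06 (1.01 to 1.12). CDK6, the other kinase of these cyclins, was at 6.34 FPKM in the control, 7.63 in WT and 8.09 in L597R. It was higher in both BRAF libraries, at 1.202 (1.11 to 1.303) in WT and 1.28 (1.18 to 1.38) in L597R over the control, and 1.06 (0.989 to 1.14) between them. CDK6 has a GC content of 39.5%, and over the fitted ratio these values were 1.104 (1.02 to 1.197) and 1.06 (0.978 to 1.14). CDK4 stood 10.4 times above CDK6 in the control and 7.899 times in L597R.

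The E-type cyclins, which activate CDK2 at the start of S phase, differed from each other. CCNE2, cyclin E2, was at 2.16 FPKM in the control, 2.26 in WT and 3.38 in L597R, counted from 126, 156 and 247 reads. It was higher in L597R than in the control, at 1.57 (1.26 to 1.96), and than in WT, at 1.49 (1.22 to 1.84), while WT was at 1.05 (0.826 to 1.34) of the control. CCNE2 was the only one of the 42 genes with an interval beyond 1.2-fold, in both comparisons of L597R; 7.7% of all genes lay that far above the control and 1.71% above WT. Beyond 1.2-fold lower there were 0 of the 42 genes in either comparison, against 1.53% and 0.894% of all genes, and in WT over the control 0 in either direction, against 0.499% higher and 0.706% lower. The GC content of CCNE2, 36.9%, was the lowest of the list, and over the fitted ratio the gene was 1.25 (1.005 to 1.56) over the control and 1.28 (1.04 to 1.58) against WT. Exons of CCNE2 overlap those of INTS8 and AC087752.4 on the other strand, and exons of CDK2 those of PMEL and AC025162.1. CCNE1, cyclin E1, was at 10.1 FPKM in the control, 8.72 in WT and 9.67 in L597R. No interval of CCNE1 left out 1, before or after the fit, with 0.859 (0.736 to 1.003) for WT over the control, 0.953 (0.821 to 1.11) for L597R over the control and 1.11 (0.957 to 1.29) for L597R over WT. CDK2 was at 21.2 FPKM in the control, 19.03 in WT and 18.1 in L597R. Both BRAF libraries lay below the control for CDK2, at 0.897 (0.826 to 0.976) and 0.855 (0.786 to 0.929). Divided by the fitted ratio the interval of WT held 1, at 0.928 (0.853 to 1.01), and L597R was at 0.913 (0.8402 to 0.992). CDC25A, the phosphatase that removes inhibitory phosphates from CDK2, was at 17.3 FPKM in the control, 18.9 in WT and 16.4 in L597R. It was highest in WT, at 1.09 (1.003 to 1.19) of the control, and L597R was at 0.8703 (0.802 to 0.944) of WT.

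Of the activator E2F factors, E2F1 was lower in both BRAF libraries. It was at 36.3 FPKM in the control, 30.7 in WT and 29.4 in L597R, counted from 1298, 1295 and 1312 reads, and lies on chromosome 20 from 33675683 to 33686404 (GRCh38). The read ratio was 0.847 (0.783 to 0.915) for WT and 0.809 (0.749 to 0.875) for L597R over the control, and 0.956 (0.885 to 1.03) for L597R over WT. At a GC content of 62.5% the quotients over the fitted ratio were 0.894 (0.827 to 0.966) and 0.914 (0.846 to 0.987). E2F1 had the lowest ratio of the 42 genes in WT over the control. E2F3 was at 11.9, 12.9 and 13.1 FPKM in the order control, WT, L597R, with 1.104 (1.01 to 1.21) for L597R over the control and 1.06 (0.967 to 1.16) over the fitted ratio, an interval that held 1. E2F2, below the filter, had 35, 32 and 19 reads, which gave 0.435 (0.235 to 0.781) for L597R over the control and 0.5602 (0.300 to 1.02) against WT. Its promoter window holds the E2F letters, as do those of E2F1 and E2F3.

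Origins are licensed in G1, when the origin recognition complex, CDC6 and CDT1 load the MCM helicase. CDC6 was at 31.03 FPKM in the control, 33.2 in WT and 33.9 in L597R. Both BRAF libraries lay slightly above the control for it, at 1.07 (1.01 to 1.13) and 1.09 (1.03 to 1.15), and at 1.06 (1.002 to 1.12) and 1.06 (1.001 to 1.12) over the fitted ratio. CDT1, which brings the MCM complex to origins, was at 33.4 FPKM in the control, 31.6 in WT and 29.9 in L597R and was lower in L597R than in the control, at 0.893 (0.826 to 0.965); over the fitted ratio it was 0.993 (0.918 to 1.07). ORC1, the largest subunit of the recognition complex, was at 14.003, 15.1 and 15.1 FPKM and ORC6 at 25.2, 25.04 and 26.9 FPKM in the order control, WT, L597R. Their ratios for L597R over the control were 1.08 (0.971 to 1.21) and 1.07 (0.997 to 1.14), and ORC6 was at 1.07 (1.01 to 1.15) of WT. After the fit the intervals of both left out 1 in L597R over the control, at 1.14 (1.02 to 1.27) for ORC1 and 1.07 (1.003 to 1.15) for ORC6.

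The MCM2 to MCM7 proteins form the ring of the replicative helicase in equal number. Their transcripts were not equal: MCM7 was highest and MCM6 lowest in all 3 libraries, 3.52-fold apart per length in the control, 3.15-fold in WT and 2.95-fold in L597R. The order MCM7, MCM3, MCM2, MCM4, MCM5, MCM6 was the same in each. MCM7 was at 136 FPKM in the control, 125 in WT and 113 in L597R. It was lower in WT at 0.923 (0.895 to 0.952) and in L597R at 0.833 (0.807 to 0.859) over the control, and over the fitted ratio at 0.973 (0.944 to 1.003) and 0.954 (0.925 to 0.984). In the order control, WT, L597R, MCM3 was at 97.6, 97.1 and 90.9 FPKM and MCM2 at 71.5, 67.8 and 63.1 FPKM. MCM4 was at 53.7, 52.1 and 50.3 FPKM, MCM5 at 45.2, 42.3 and 38.997 FPKM and MCM6 at 38.6, 39.7 and 38.4 FPKM. All 6 were lowest in L597R. Against the control the interval of L597R lay below 1 for MCM2, MCM3, MCM4, MCM5 and MCM7, at ratios from 0.833 to 0.938, while MCM6 was at 0.994 (0.939 to 1.05). Summed over the 6 genes, their reads scaled to library depth (CPM) came to 2151 in the control, 2058 in WT and 1917 in L597R. That was a ratio of 0.957 (0.942 to 0.972) for WT and 0.892 (0.877 to 0.906) for L597R over the control, and of 0.932 (0.918 to 0.946) for L597R over WT. The MCM genes range from 43.1% GC (MCM6) to 58.1% (MCM2). Over the fitted ratio MCM2 and MCM3 were at 1.01 (0.966 to 1.05) and 1.01 (0.971 to 1.05), and MCM6, whose own ratio was near 1, was at 0.918 (0.867 to 0.973). The intervals of MCM4 and MCM5 also held 1 after the fit. In L597R over WT only that of MCM6 then left out 1. The median of the 6 genes over the fitted ratio was 0.967 in L597R over the control and 0.983 in L597R over WT. The summed ratios were not set against a fit.

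CDC45 and the 4 GINS proteins join the MCM ring to make the active helicase, and all 5 genes had ratios below 1 in L597R before and after the fit. CDC45 was at 24.5 FPKM in the control, 24.5 in WT and 20.4 in L597R. Only L597R was low for CDC45, at 0.833 (0.762 to 0.911) of the control and 0.833 (0.765 to 0.908) of WT, with WT at 0.999 (0.916 to 1.09) of the control. GINS1 was at 18.6, 19.3 and 17.2 FPKM and GINS2 at 34.3, 32.7 and 29.04 FPKM in the order control, WT, L597R. GINS3 was at 6.14, 5.65 and 5.07 FPKM, counted from 417, 452 and 430 reads, and GINS4 at 4.47, 4.58 and 4.04 FPKM, counted from 324, 391 and 365 reads. Each of the 4 was lowest in L597R. The ratios of L597R to the control were 0.924 (0.849 to 1.01) for GINS1, 0.846 (0.787 to 0.909) for GINS2, 0.826 (0.7199 to 0.947) for GINS3 and 0.902 (0.775 to 1.05) for GINS4, so the intervals of GINS1 and GINS4 held 1. Their reads summed gave 0.982 (0.937 to 1.03) for WT and 0.874 (0.833 to 0.917) for L597R over the control, and 0.8895 (0.849 to 0.932) for L597R over WT. The GINS genes have GC contents from 41.4% to 49.1%, where the genes under 50% GC had a median ratio of 1.098. Over the fitted ratio L597R was further below the control for GINS1 at 0.816 (0.7501 to 0.889) and GINS3 at 0.768 (0.6697 to 0.881); GINS2 was at 0.875 (0.814 to 0.9404), GINS4 at 0.916 (0.787 to 1.07) and CDC45 at 0.888 (0.812 to 0.971). Against WT the same quotients were 0.822 (0.759 to 0.891), 0.853 (0.746 to 0.976), 0.897 (0.836 to 0.962), 0.883 (0.764 to 1.02) and 0.857 (0.787 to 0.934). MCM10, which helps CDC45 to bind, was at 14.2, 15.2 and 15.2 FPKM, with no interval leaving out 1 before or after the fit. Exons of GINS2 overlap those of GSE1 on the other strand, exons of GINS3 those of AC009118.2 and exons of MCM7 those of AP4M1.

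**Figure D5:**
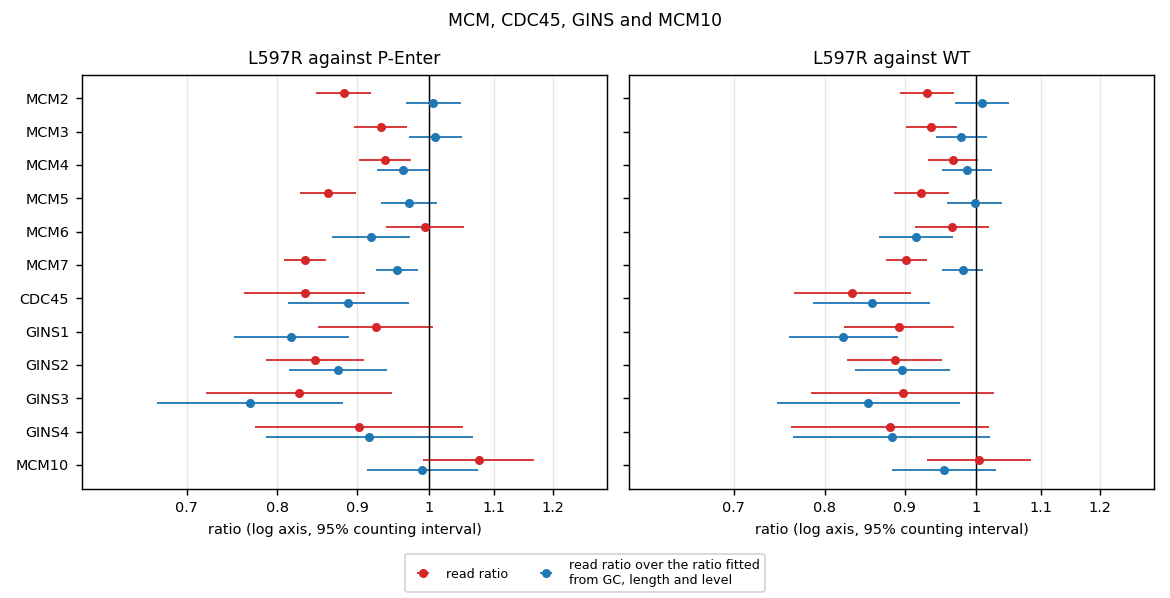
Read ratio (red) and read ratio over the ratio fitted from GC content, length and mean level (blue) on a log axis, with 95% counting intervals, for the MCM, CDC45, GINS and MCM10 genes in L597R over the control (left) and against WT (right). For MCM2, MCM3 and MCM5 the blue intervals hold 1, while for CDC45, GINS1, GINS2 and GINS3 both colours' points lie below 1 and the blue intervals leave it out in both panels.

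PCNA forms the sliding clamp that holds polymerases on DNA, and replication factor C, made of RFC1 to RFC5, loads it. PCNA was at 180.5 FPKM in the control, 174 in WT and 191 in L597R. It was highest in L597R, at 1.06 (1.01 to 1.11) of the control and 1.096 (1.05 to 1.15) of WT, and over the fitted ratio at 1.03 (0.982 to 1.07) and 1.06 (1.02 to 1.11). Among the loader subunits RFC3 was at 24.98 FPKM in the control, 28.99 in WT and 30.6 in L597R. Both BRAF libraries were above the control for RFC3, at 1.16 (1.07 to 1.26) and 1.22 (1.13 to 1.33); its GC content is 39.1%, and over the fitted ratio WT was at 1.09 (1.004 to 1.19) and L597R at 1.02 (0.939 to 1.11). RFC2 was at 52.2, 47.5 and 46.8 FPKM, RFC4 at 19.6, 19.4 and 19.6 FPKM and RFC5 at 22.8, 20.4 and 21.5 FPKM in the order control, WT, L597R. RFC2 was lower in both BRAF libraries, at 0.9101 (0.848 to 0.976) and 0.898 (0.838 to 0.962), but both intervals held 1 over the fitted ratio, at 0.956 (0.892 to 1.03) and 0.986 (0.9198 to 1.06). For RFC5 the interval lay below 1 in WT, at 0.898 (0.822 to 0.981), and held 1 in L597R, at 0.945 (0.867 to 1.03). After the fit both lay below 1, at 0.887 (0.812 to 0.969) and 0.894 (0.8201 to 0.974).

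DNA polymerase alpha with primase starts each strand, polymerases delta and epsilon extend it, and FEN1 and LIG1 trim and join the Okazaki fragments. LIG1, DNA ligase 1, was the lowest of the 42 genes in both comparisons of L597R. It was at 11.2 FPKM in the control, 11.1 in WT and 8.76 in L597R, counted from 979, 1148 and 956 reads, on chromosome 19 from 48115445 to 48170603. The ratio was 0.782 (0.714 to 0.856) over the control and 0.786 (0.7203 to 0.857) against WT, with WT at 0.995 (0.913 to 1.08) of the control. Over the fitted ratio L597R was at 0.873 (0.797 to 0.955) and 0.841 (0.771 to 0.917). FEN1, the flap endonuclease, was at 137 FPKM in the control, 128 in WT and 118 in L597R. It was lower in WT at 0.937 (0.898 to 0.978) and in L597R at 0.864 (0.827 to 0.902), and over the fitted ratio at 0.986 (0.945 to 1.03) and 0.958 (0.917 to 1.0001), both holding 1. Exons of LIG1 overlap an antisense gene, and those of FEN1 overlap FADS2 on the same strand and TMEM258 on the other. POLA1, the catalytic subunit of polymerase alpha, was at 3.76 FPKM in the control, 4.28 in WT and 4.68 in L597R. It was higher in both BRAF libraries, at 1.14 (1.04 to 1.25) and 1.24 (1.14 to 1.36). Its GC content is 42.9%, and over the fitted ratio the interval of WT held 1, at 1.07 (0.978 to 1.18), and L597R was at 1.12 (1.02 to 1.22). Its partner POLA2 was at 1.43, 1.296 and 1.41 FPKM, counted from 106, 113 and 130 reads, and the primase subunit PRIM1 at 4.69, 4.695 and 4.58 FPKM; neither had an interval leaving out 1, before or after the fit. Exons of PRIM1 overlap those of NACA and AC117378.1 on the same strand and of HSD17B6 on the other. POLD1 was at 24.6, 23.1 and 21.3 FPKM and POLE at 10.8, 10.97 and 9.78 FPKM in the order control, WT, L597R. L597R was below the control for both, at 0.865 (0.808 to 0.926) and 0.909 (0.8602 to 0.961), and over the fitted ratio at 0.9604 (0.897 to 1.03) and 0.984 (0.931 to 1.04).

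Deoxynucleotides are made by ribonucleotide reductase, thymidylate synthase and thymidine kinase. TK1, thymidine kinase 1, was at 151 FPKM in the control, 149.7 in WT and 134 in L597R. It was lowest in L597R, at 0.884 (0.846 to 0.925) of the control and 0.894 (0.856 to 0.933) of WT, and at 62.8% GC the first became 1.01 (0.963 to 1.05) over the fitted ratio. RRM1 and RRM2, the subunits of ribonucleotide reductase, were at 83.3, 86.5 and 86.2 FPKM and 70.7, 70.8 and 69.4 FPKM in the order control, WT, L597R. No interval of their read ratios left out 1, and L597R was at 1.04 (0.996 to 1.08) and 0.982 (0.954 to 1.01) of the control. After the fit RRM2 was lower in L597R than in the control, at 0.958 (0.931 to 0.986), and RRM1 lower in L597R than in WT, at 0.955 (0.9205 to 0.9898). TYMS, thymidylate synthase, was at 13.1, 12.6 and 11.4 FPKM, with 0.871 (0.761 to 0.996) for L597R over the control, and 0.903 (0.7899 to 1.03) over the fitted ratio, an interval that held 1. Exons of TYMS overlap those of ENOSF1 and TYMSOS on the other strand. In all, exons of 21 of the 43 genes overlap those of another annotated gene, 5 on the same and 18 on the other strand, some on both, and the strand setting of the counting is not given in the sources used here.

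The genes with the E2F letters were set beside those without. In L597R over the control the 19 genes with a match at or above the 1 FPKM mean had a median read ratio of 0.924, and the 17 with a window and no match had 0.971. Over the fitted ratio the medians were 0.993 and 0.986. In WT over the control they were 0.995 and 0.994 before the fit. The difference between the 2 sets was not tested.

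The order of the 3 libraries was P-Enter highest, then WT, then L597R for 18 of the 42 genes (42.9%, against 26.9% of all genes) and the reverse for 8 (19.05%, against 28.8%). Both BRAF libraries are set against the same control here. These counts were not adjusted for GC content, with which the ratios fell in WT and more steeply in L597R. The median GC content was 50.04% for the 42 genes and 47.4% for the protein-coding genes.

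A wider list of 60 other genes of the same pathway is given for comparison. Of 57 with a mean of at least 1 FPKM, 0 differed 2-fold in any comparison, and the intervals lay more often above than below 1. In L597R over the control the interval lay above 1 for 21 (36.8%) and below 1 for 12 (21.1%), beside the 25.5% and 23.9% of all genes, and the median log2 difference was 0.07. In WT over the control the interval lay above 1 for 14 (24.6%, against 14.0% of all genes) and below 1 for 4 (7.02%, against 12.1%). In L597R over WT it lay above 1 for 20 (35.1%, against 22.1%) and below 1 for 7 (12.3%, against 16.3%). The wider list has a median GC content of 43.7%, against 50.04% for the 42 genes. Over the fitted ratio its median in L597R over the control was 1.02, with 17 intervals above 1 (29.8%, against 17.4% of the genes fitted) and 9 below (15.8%, against 16.7%). The numbers were 8 above and 5 below in WT over the control (14.04% and 8.77%, against 10.1% and 10.8%), and 10 and 7 in L597R over WT (17.5% and 12.3%, against 14.0% and 13.4%).

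ORC4, a further subunit of the origin recognition complex, had the highest ratio of the wider list in L597R over the control. It was at 3.59 FPKM in the control, 4.37 in WT and 5.95 in L597R, with 1.66 (1.48 to 1.87) over the control and 1.36 (1.23 to 1.51) against WT, and 1.33 (1.18 to 1.496) over the fitted ratio. All of ORC2 to ORC5 were above the control in L597R, with a median ratio of 1.27 and of 1.09 over the fitted ratio. After the fit only the intervals of ORC3 and ORC4 left out 1, and those of ORC2 and ORC5 held it. DNA2, a nuclease that cuts long flaps, was at 6.48, 7.32 and 9.61 FPKM in the order control, WT, L597R, with 1.48 (1.32 to 1.67) over the control and 1.19 (1.06 to 1.34) over the fitted ratio. RB1, the retinoblastoma gene, was at 11.97 FPKM in the control, 15.3 in WT and 17.9 in L597R. Its transcript was higher in both BRAF libraries, at 1.28 (1.18 to 1.38) and 1.496 (1.39 to 1.62), and over the fitted ratio at 1.17 (1.08 to 1.26) and 1.18 (1.097 to 1.28). RBL1, its relative p107, was at 6.61, 8.37 and 8.62 FPKM, and WDHD1, which ties polymerase alpha to the helicase, at 8.599, 10.7 and 12.6 FPKM.

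The 6 CDK inhibitors compared went in both directions, with 3 ratios above and 3 below 1 in L597R over the control and 3 above and 3 below in L597R over WT. CDKN2C, an inhibitor of CDK4 and CDK6, was at 19.04 FPKM in the control, 17.5 in WT and 15.2 in L597R, with 0.7996 (0.722 to 0.885) for L597R over the control and 0.901 (0.814 to 0.998) over the fitted ratio. CDKN2A, of the same family, was at 6.64, 6.92 and 5.81 FPKM in the order control, WT, L597R, and L597R was at 0.8404 (0.729 to 0.968) of WT, and at 0.9004 (0.781 to 1.04) over the fitted ratio, an interval that held 1. CDKN1B, an inhibitor of cyclin E with CDK2, was at 7.19, 6.42 and 7.399 FPKM, with WT at 0.893 (0.813 to 0.9799) of the control and L597R at 1.15 (1.06 to 1.26) of WT. CDKN1A, which inhibits the same kinase and was named after its values were seen, was at 16.4, 15.5 and 17.8 FPKM and was also higher in L597R than in WT, at 1.15 (1.04 to 1.27). RECQL4, a helicase needed to start replication, was at 16.5, 14.4 and 13.96 FPKM, and TFDP2, a partner of E2F factors, at 4.27, 4.48 and 3.84 FPKM. ASF1B, a histone chaperone, was lowest in WT and highest in L597R, at 1.73, 1.304 and 2.15 FPKM from 45, 40 and 70 reads, with 0.754 (0.4801 to 1.18) for WT over the control and 1.65 (1.104 to 2.4996) for L597R over WT.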

How the data were processed

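RNA of 3 DU145 libraries, 1 per group, was sequenced from a stranded mRNA kit, per the labels' protocols. Tools named in the submitters' processing notes are HISAT2, HTSeq, Cufflinks and Trimmomatic, with the builds hg38 and GRCh38; versions, annotation and strand setting are not given in the sources used here. The deposited values are FPKM, given for each Ensembl ID per the file headers. Symbols came from a gene name table, and positions, types and GC content from GENCODE 29.

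Whole reads were recovered by searching library totals and gene lengths that gave whole numbers in all 3 libraries within 1e-05, which worked for 10622 of 10639 genes with a mean of at least 1 FPKM. Where multiples of a length also fitted (MCM7, RFC2 and FEN1 among the members), the one nearest the annotated exon length was taken. The recovered reads summed to 101% of the total in the control, and the cause of this excess was not tested. Reads copied by PCR do not stand for separate molecules, so the intervals, which are exact Clopper-Pearson 95% intervals conditional on the sum of both counts, cover counting error only. The pseudocount of 1 understates the change of low genes. The regression used GC content and the logarithms of length and mean FPKM, each with terms up to the cube, over 9353 protein-coding genes, and the interval set against its fitted ratio was added after the data were seen. The scripts were tested on simulated data.

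The members and lists were chosen with earlier results of these data known. Genes described in full were, by rule, the 3 highest and 3 lowest read ratios of each comparison and the highest gene of each role, and likewise the 3 highest and 3 lowest of the wider list; the other members are given so that each is accounted for. Alternatives were pseudocounts of 0.1 and 5, no filter, a filter of 5 FPKM, rescaling by the median ratio, protein-coding genes only, a threshold of 1.5-fold, an interval beyond 1.2-fold and regression residuals. Computation used scipy 1.17.1, pandas 2.3.3 and numpy 2.4.6 under Python 3.11.15, and figures matplotlib 3.10.9.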

Additional observations from a re-analysis of the deposited data

How the results depend on the processing

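With an interval beyond 1.2-fold in place of one leaving out 1, the 42 genes gave 0 in WT against P-Enter in place of 13, 1 in L597R against P-Enter in place of 26 and 1 in L597R against WT in place of 18, the alternative being stricter by its construction. Set against the fitted ratio, WT against P-Enter gave 8 in place of 13, with 6 above and 2 below where there had been 5 and 8. The count past the 2-fold rule was 0 in each comparison and under each alternative run, 1.5-fold included. The 1.5-fold alternative kept the pseudocount of 1, which lowers the difference of CCNE2 in L597R against P-Enter. Its log2 difference was 0.474 with that pseudocount and 0.627 with 0.1, beside a read ratio of 1.57. The median log2 difference ranged over its alternatives from -0.01 to -0.00 in WT against P-Enter, -0.10 to -0.03 in L597R against P-Enter and -0.06 to -0.03 in L597R against WT. Of 168 values of single named genes under other pseudocounts and the rescaling, 166 stayed within the gene's counting interval, 2 moved beyond it (ORC4 and RB1 in L597R against P-Enter with a pseudocount of 5) and 0 changed direction. Depth limited POLA2, PRIM1, CCNE2, GINS4 and E2F2 most. No paired analysis was possible because each group holds 1 library.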

Other observations

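Pairs of genes with opposed or parallel tasks are given here by the quotient of their levels; they were chosen after their values were seen, and no interval was computed for the quotients. CDT1, the licensing factor, and GMNN, its inhibitor geminin, stood at a quotient of FPKM of 1.01 in the control, 1.02 in WT and 0.763 in L597R. GMNN itself was at 32.99, 30.9 and 39.1 FPKM in that order, with a read ratio of 1.19 (1.097 to 1.28) for L597R over the control and 1.101 (1.02 to 1.19) over the fitted ratio. CCNE1 over CCNE2 was 4.71, 3.85 and 2.86. E2F1 over E2F3 was 3.05, 2.38 and 2.24. Among all pairs computed, of which only some are printed here, the quotient moved least for TK1 over TYMS, at 11.5, 11.9 and 11.7. Both are enzymes of thymidylate supply.

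The kinase that fires licensed origins, CDC7, and its activator DBF4 were both higher in the BRAF libraries. CDC7 was at 20.1, 23.2 and 26.4 FPKM in the order control, WT, L597R, with 1.31 (1.21 to 1.42) for L597R over the control, and DBF4 at 8.12, 10.1 and 10.7 FPKM, with 1.32 (1.18 to 1.48). Their GC contents are 39.1% and 40.1%, and over the fitted ratio L597R was at 1.09 (1.01 to 1.19) and 1.13 (1.01 to 1.26) of the control. After the fit the interval of DBF4 lay above 1 in WT over the control, and that of CDC7 held 1. In L597R over WT both then held 1. CCNA2, the cyclin A of S phase, was at 69.1, 71.3 and 78.2 FPKM. Its ratio in L597R over the control was 1.13 (1.07 to 1.19), and 1.02 (0.973 to 1.08) over the fitted ratio. These genes were also picked out after their values were seen.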
